A study of Homo sapiens with 6 samples.

Results

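VSNL1 encodes visinin-like protein 1, a neuronal calcium sensor. It was examined together with its relatives HPCAL1 (hippocalcin-like 1), NCALD (neurocalcin delta) and NCS1 (neuronal calcium sensor 1), by taking every probe set that the platform annotation assigns to 1 of these symbols alone. This gave 4 of 19775 genes and 11 of 54613 probe sets (groups of short probes for 1 transcript), 2 each for VSNL1, HPCAL1 and NCALD and 5 for NCS1. Expression had been measured on Affymetrix Human Genome U133 Plus 2.0 arrays in Cal27, a human cell line established from squamous carcinoma of the tongue. All cells were infected with a lentivirus and selected in puromycin at 2 µg/mL for 2 weeks. The 3 LV-shNC arrays came from cells with a scrambled short hairpin RNA, and the 3 LV-shIL-1β arrays from cells with a hairpin against IL1B, the gene of the inflammatory cytokine interleukin-1β. A single hairpin was used against IL1B, so the effect of the hairpin and that of IL-1β cannot be told apart. Whether the 3 arrays of each kind stand for separate cultures is not said in the labels or methods, so every SD, SE and p-value measures variation among these arrays, possibly technical only.

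Neuronal calcium sensors are small proteins with EF-hand calcium-binding loops and a fatty acid, myristate, at their amino terminus. In several of them calcium binding exposes the myristate and moves the protein to membranes. They are best known from neurons and retina, where they act on receptor trafficking, ion channels, cyclic nucleotides and phosphoinositides. Outside the nervous system, visinin-like protein 1 has been studied in squamous carcinoma cells, in which it was linked to cyclic AMP, the factor SNAI1 and reduced invasion.

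The hairpin stems and the promoters of the genes that differed most, VSNL1 and HPCAL1, are shown to identify the agents and the genes. The stems were read from the labels, 5′ to 3′ in the sense direction:
LV-shIL-1β: ggagagtgtagatcccaaa
LV-shNC: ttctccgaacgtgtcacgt
The promoters, each the 250 bases before the annotated start, were taken from RefSeq (GRCh38.p14) and lie on the plus strand at chr2:17539722-17539971 for VSNL1 and chr2:10302654-10302903 for HPCAL1. Capitals mark the GC box GGGCGG on either strand:
VSNL1: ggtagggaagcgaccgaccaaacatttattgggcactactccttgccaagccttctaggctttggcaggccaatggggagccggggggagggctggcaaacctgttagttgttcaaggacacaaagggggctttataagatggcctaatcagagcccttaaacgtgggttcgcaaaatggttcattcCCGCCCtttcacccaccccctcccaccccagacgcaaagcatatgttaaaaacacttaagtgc
HPCAL1: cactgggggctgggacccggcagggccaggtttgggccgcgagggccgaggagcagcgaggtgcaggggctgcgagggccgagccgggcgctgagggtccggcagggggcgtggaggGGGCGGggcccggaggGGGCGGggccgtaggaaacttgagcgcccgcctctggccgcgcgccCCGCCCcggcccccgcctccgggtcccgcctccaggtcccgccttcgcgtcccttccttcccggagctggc
The GC content of the window was 52.8% for VSNL1 and 80.0% for HPCAL1, with a median of 58.0% over 27305 promoters. The VSNL1 window held 1 GC box and that of HPCAL1 3, and 42.3% of all windows held at least 1. Neither window held the AP-1 motif TGANTCA (6.6% of all windows), the cyclic AMP response element TGACGTCA (1.77%), the SNAI E-box CAGGTG (17.5%) or the NF-kB consensus (9.57%), each searched on both strands. These are matches of letters in a short window and not measured binding.

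The target of the hairpin was checked before the sensors were described. On the brighter IL1B probe set the signal was 2677, 2611 and 2494 in LV-shNC and 1569, 1569 and 1596 in LV-shIL-1β, a log2 difference of -0.72 ± 0.04 (SE, n = 3). On the other it was -0.74 ± 0.04. The groups were apart on both. The median signal of an array lay between 18.4 and 18.9, and the lowest correlation within a group (0.996) was close to the highest between groups (0.996). For GAPDH, whose 3′ over 5′ signal reflects RNA integrity, the log2 ratio was -0.02 ± 0.03 for LV-shNC against 0.04 ± 0.01 for LV-shIL-1β (SD, n = 3), without overlap. For ACTB the same ratio was 0.41 ± 0.13 against 0.39 ± 0.05, and the part of RNA integrity in the results was not tested. Over all 27566 probe sets kept by the filter on low signal, 7.05% passed limma's test, and the groups did not overlap for 27.9%.

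The genes were selected on their log2 differences in this same comparison, VSNL1 being among the largest decreases and the others its relatives, so their values are a description and no test is given for them. The confidence intervals printed for them are not adjusted for this choice and are likewise descriptive only. The 2 HPCAL1 probe sets and the VSNL1 pair lay apart between the groups, in opposite directions, whereas NCALD was dim and NCS1 differed little. Of the 11 probe sets, 9 passed the filter, which asks for a signal above 18.6, the median of all values, in at least 3 of the 6 arrays. The groups did not overlap for 5 of these 9, beside 27.9% of all kept probe sets, and nothing is read from this share because the choice used the same contrast.

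Both VSNL1 probe sets gave less signal after the IL1B hairpin. On 203797_at the signal was 198, 217 and 217 in the LV-shNC arrays and 90.8, 92.3 and 89.0 in the LV-shIL-1β arrays. The LV-shIL-1β arrays were closely grouped, and the highest of them was below the lowest LV-shNC array. The log2 difference was -1.21 ± 0.06 (SE, n = 3), so that 43.2% of the control signal remained (95% confidence interval 39.2 to 47.5%). On 203798_s_at the signal was 124, 118 and 112 in LV-shNC and 43.9, 54.4 and 45.7 in LV-shIL-1β. LV-shIL-1β array 2 was the highest of its group on both probe sets, but the groups did not overlap. The log2 difference here was -1.30 ± 0.09 (SE, n = 3), with 40.6% of the signal remaining (35.3 to 46.7%). Ranked by difference, these were the 2nd and 3rd lowest of the 27566 kept probe sets. The ending _s_at marks a probe set that may match more than 1 transcript, while 203797_at carries no such mark.

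HPCAL1, a close relative of VSNL1 that is found in many tissues, differed the other way on both probe sets. On 212552_at the signal was 273, 258 and 270 in LV-shNC and 326, 371 and 380 in LV-shIL-1β. Every LV-shIL-1β array was above every LV-shNC array, with LV-shIL-1β array 1 nearest to the control arrays. The log2 difference was 0.42 ± 0.07 (SE, n = 3), or 134% of the control signal (95% confidence interval 121 to 149%). On 205462_s_at the signal was 87.2, 93.0 and 78.1 in LV-shNC and 100.2, 108 and 109.9 in LV-shIL-1β. The groups again did not overlap, with a smaller gap, and the log2 difference was 0.30 ± 0.08 (124%, 109 to 140%). Over both probe sets the mean log2 difference was 0.36 for HPCAL1 and -1.26 for VSNL1.

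**Figure D1:**
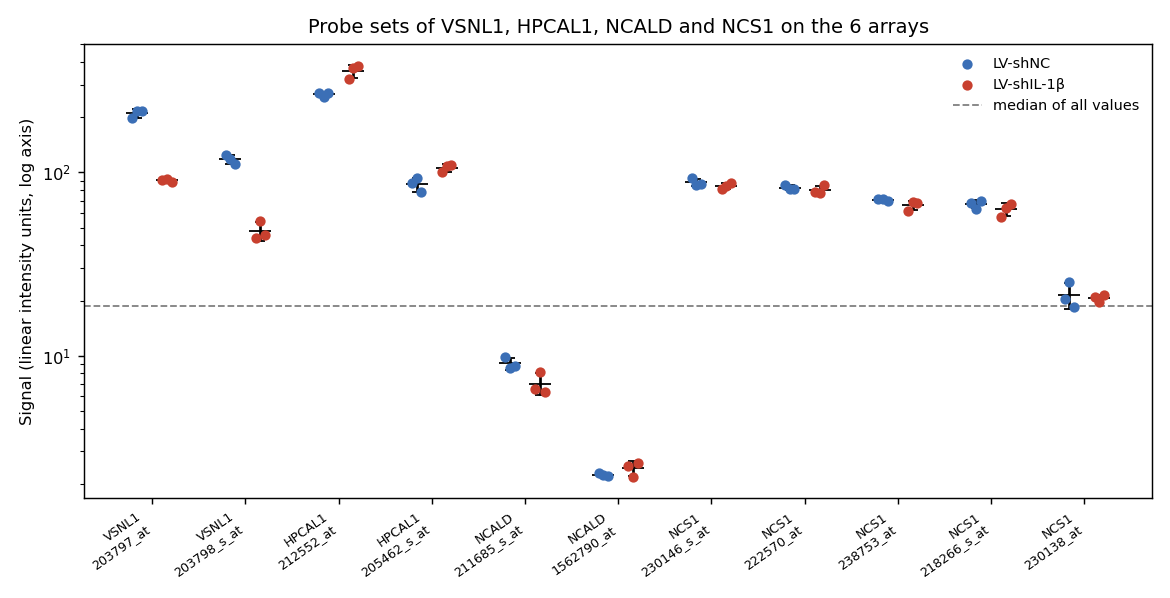
Signal of the 11 probe sets of VSNL1, HPCAL1, NCALD and NCS1 (vertical axis, linear intensity units on a log axis) on the LV-shNC (blue) and LV-shIL-1β (red) arrays; each point is 1 array, black marks are the mean with its SD (n = 3) and the dashed line is the median of all values, 18.6. The VSNL1 points of LV-shIL-1β lie below and the HPCAL1 points above those of LV-shNC, and both NCALD probe sets lie below the line.

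NCS1, which binds a phosphatidylinositol 4-kinase and is the most widely expressed sensor of the family, differed little between the groups. All of its 5 probe sets had log2 differences between -0.10 and -0.04, with SE from 0.07 to 0.12. On the brightest, 230146_s_at, the signal was 92.7, 85.1 and 87.0 in LV-shNC and 81.0, 84.2 and 87.8 in LV-shIL-1β, and the groups overlapped. They overlapped as well on 222570_at, 218266_s_at and 230138_at. On 238753_at the signal was 71.2, 71.7 and 69.9 against 61.4, 69.0 and 68.0, and the groups did not overlap, although the gap between the nearest arrays was under 1 signal unit. The log2 difference on this probe set was -0.10 ± 0.07 (SE, n = 3), with a 95% confidence interval from -0.26 to 0.05. Over the 5 probe sets the intervals spanned -0.31 to 0.23 at most, the widest being that of the dimmest, 230138_at.

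NCALD, a relative of hippocalcin known mainly from brain and kidney, was dim on every array. Its signal on 211685_s_at was 9.81, 8.55 and 8.83 in LV-shNC and 6.61, 8.16 and 6.37 in LV-shIL-1β, and on 1562790_at it was 2.30, 2.23 and 2.20 against 2.49, 2.17 and 2.61. None of these 12 values reached the median of all values. The log2 differences were -0.37 ± 0.12 and 0.11 ± 0.10 (SE, n = 3, from a fit without the filter), opposite in sign. With 16 added to each signal before the logarithm they shrank to -0.12 and 0.01, so no direction is given for NCALD.

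**Figure D2:**
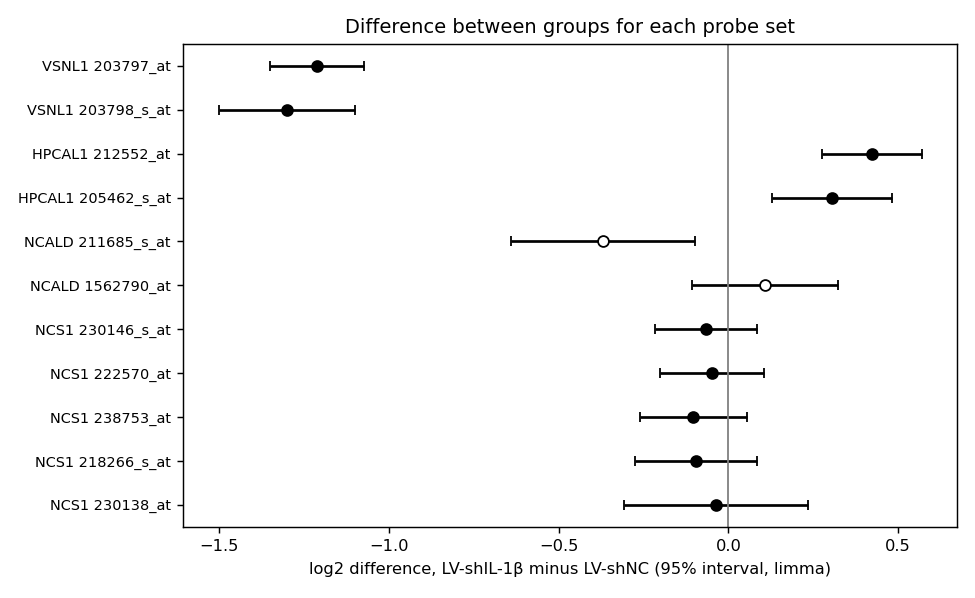
Log2 difference of each probe set (LV-shIL-1β minus LV-shNC, horizontal axis) with its 95% confidence interval from limma (3 arrays a group); filled points passed the filter on low signal and open points did not. VSNL1 lies at -1.21 and -1.30, HPCAL1 at 0.42 and 0.30, and the NCS1 points lie within 0.11 of 0.

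The other neuronal calcium sensors were then examined from a list of 10. Here and in all lists that follow, a gene is given by whichever of its kept probe sets was brightest on average, and over all 12322 genes measured in this way 8.52% passed limma's test (adjusted p under 0.05 after Benjamini-Hochberg), with 4.03% higher and 4.5% lower. Of the list, 9 had a probe set assigned to them alone and 5 were kept, of which 0 passed with limma (1 at an unadjusted p under 0.05, and 0 with the methods' t-test after adjustment). The median log2 difference was -0.04, beside 0.00 over all genes. HPCA, hippocalcin, stood at -0.03 ± 0.08 (SE, n = 3) and HPCAL4 at -0.08 ± 0.11. The potassium channel-interacting proteins KCNIP2 and KCNIP3 stood at 0.06 ± 0.09 and -0.04 ± 0.10. GUCA1A, an activator of retinal guanylate cyclase, had a signal of 20.9, 20.9 and 20.4 in LV-shNC and 18.0, 17.8 and 16.2 in LV-shIL-1β. All values were near the median of all values, and GUCA1A was kept only through its LV-shNC values, so that its groups had to lie apart. It is the gene counted above at an unadjusted p under 0.05. Its log2 difference of -0.26 ± 0.09 (adjusted p of 0.128, limma, Benjamini-Hochberg) is therefore not used. RCVRN, GUCA1C, KCNIP1 and KCNIP4 were not kept.

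Among other proteins with EF-hand loops, 15 of 29 listed genes were kept, of which 0 were higher and 1 lower, with a median log2 difference of -0.07. The gene that fell was CALB1, calbindin, a calcium buffer of neurons and transporting epithelia. Its signal was 523, 542 and 549 in LV-shNC and 363, 382 and 380 in LV-shIL-1β, with no overlap. The log2 difference was -0.52 ± 0.05 (SE, n = 3, limma, Benjamini-Hochberg adjusted p = 0.000384), and its other kept probe set also passed at -0.51. The call was kept without any of the 6 arrays. The brightest other members did not pass, namely SRI (sorcin, -0.12 ± 0.05), CHP1 (-0.08 ± 0.05) and PDCD6 (-0.12 ± 0.06). PPP3R1, the regulatory subunit of calcineurin, stood at 0.16 ± 0.06 and did not pass, whereas its dimmer probe set passed at 0.39; it was named after its values were seen.

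Of the genes whose products bind these sensors, 21 of 27 listed were kept, of which 1 was higher and 0 were lower, a share of 4.76% beside 8.52% of all genes, and the median log2 difference was -0.04. ITPR1, an inositol trisphosphate receptor that releases calcium from the endoplasmic reticulum, had a signal of 57.2, 63.6 and 65.0 in LV-shNC and 76.9, 75.9 and 87.9 in LV-shIL-1β. The log2 difference was 0.37 ± 0.08 (SE, n = 3, limma, Benjamini-Hochberg adjusted p = 0.0282), and 2 of its 3 kept probe sets passed. The call was lost without LV-shNC array 1, 2 or 3 or LV-shIL-1β array 2 or 3 (limma, adjusted p up to 0.099). It was also lost with the replicate block in limma (adjusted p = 0.0737). ACTB (0.05 ± 0.04), the clathrin heavy chain CLTC (0.07 ± 0.03) and the adaptor subunit AP2S1 (0.07 ± 0.09), the brightest of the list, did not pass.

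Of the enzymes that make, degrade or respond to cyclic AMP, 17 of 36 were kept, 1 was higher and 1 lower, and the median was 0.03. With the mean over all kept probe sets of a gene in place of the brightest, 2 were higher and 0 lower. The adenylyl cyclase ADCY1 rose from 30.9, 35.4 and 28.0 to 41.9, 49.2 and 45.3, a log2 difference of 0.54 ± 0.10 (SE, n = 3, limma, Benjamini-Hochberg adjusted p = 0.015), while its other kept probe set did not pass at 0.27. The phosphodiesterase PDE4A, which degrades cyclic AMP, fell from 32.5, 30.8 and 35.2 to 22.7, 20.1 and 24.8, a log2 difference of -0.55 ± 0.10 (adjusted p = 0.0124), while its 2 other kept probe sets did not pass. Neither pair of groups overlapped, but the signals were low. ADCY1 lost its call without LV-shIL-1β array 2 or 3 (adjusted p up to 0.0827) and PDE4A without LV-shNC array 3 or LV-shIL-1β array 2 (up to 0.06). With 16 added before the logarithm the differences were 0.38 and -0.34. PRKAR1A (0.07 ± 0.06) and CREB1 (0.08 ± 0.05), the brightest members, did not pass.

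Calcium channels and pumps held 4 changed genes among 23 kept of 39 listed, 2 higher and 2 lower, with a median of -0.05. This was a share of 17.4% beside 8.52% of all genes. With the mean over all kept probe sets of a gene, 7 passed, 3 higher and 4 lower. The pump ATP2C1 stood at -0.08 and did not pass, whereas 1 of its 4 kept probe sets passed as higher, and it was named after its values were seen. Besides ITPR1, the channel TRPC1 was higher (25.5 ± 2.65 against 36.2 ± 1.33, SD, n = 3), with a log2 difference of 0.51 ± 0.09 (SE, limma, Benjamini-Hochberg adjusted p = 0.0125, lost without LV-shIL-1β array 3 at 0.0502). With 16 added before the logarithm it was 0.33, and the stricter filter, a mean above 2 times the median, left TRPC1 out. ATP2B4, a plasma membrane pump that exports calcium, fell from 93.8, 95.6 and 100.3 to 66.8, 69.1 and 68.8, a log2 difference of -0.50 ± 0.06 (adjusted p = 0.00205). This probe set kept its call without any of the 6 arrays, while the other kept one did not pass at -0.42. CACNA1A, the pore subunit of a neuronal voltage-gated channel, stood at -0.33 ± 0.08 (adjusted p = 0.0355), and its call was lost when LV-shNC array 2 or 3 or any single LV-shIL-1β array was left out (adjusted p up to 0.126). With the replicate block in limma (adjusted p = 0.111) or without the filter (limma, adjusted p = 0.0597) this call was lost as well.

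**Figure D3:**
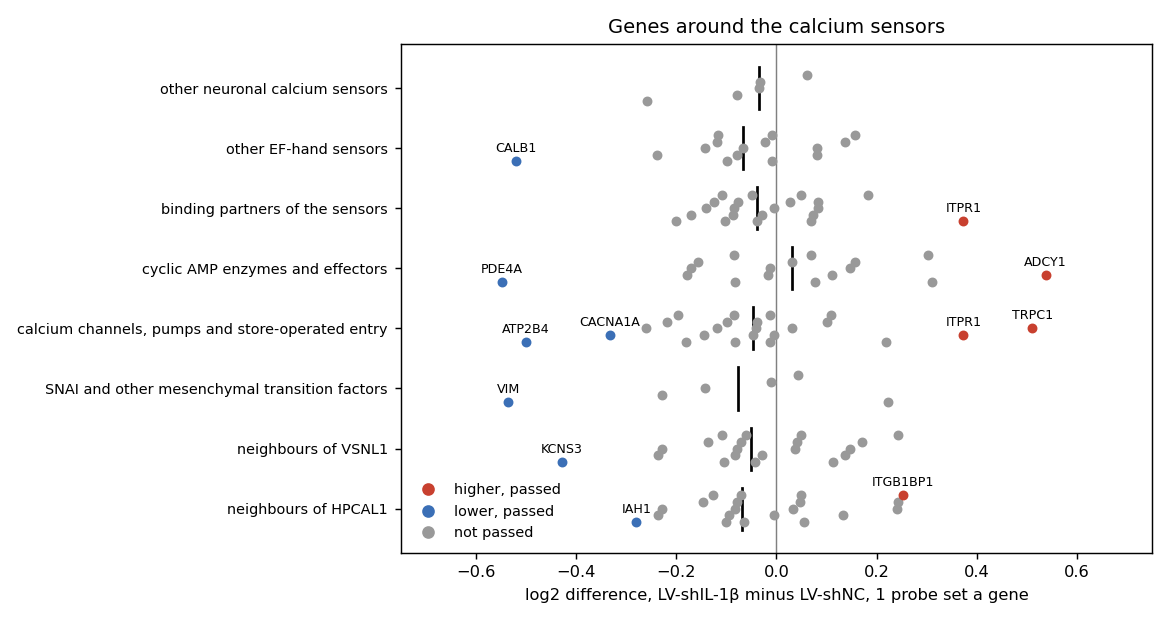
Log2 difference (LV-shIL-1β minus LV-shNC, horizontal axis) of each kept gene in 8 lists; each point is 1 gene by its brightest kept probe set, coloured red or blue where it passed limma's adjusted threshold, and the black line is the list's median. The medians lie between -0.08 and 0.03, and the genes that passed are named.

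SNAI1, the factor linked to visinin-like protein 1 in squamous carcinoma cells, was below the filter here, as were SNAI3, ZEB1, ZEB2 and TWIST2. Of the 6 kept genes of that list of 11, 0 were higher and 1 lower, with a median of -0.08. VIM, vimentin, an intermediate filament of mesenchymal cells, fell from 51.3, 50.2 and 54.9 to 35.5, 35.4 and 37.0, a log2 difference of -0.54 ± 0.07 (SE, n = 3, limma, Benjamini-Hochberg adjusted p = 0.003). SNAI2 stood at -0.01 ± 0.06, CDH1, the epithelial cadherin, stood at 0.04 ± 0.04 and FN1, fibronectin, at 0.22 ± 0.06, and none of these passed, although 1 of the 5 kept probe sets of FN1 did.

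VSNL1 and HPCAL1 both lie on chromosome 2, and neighbours on each side were compared in the order of the RefSeq table. They were the 10 nearest protein-coding genes with a kept probe set, so genes below the filter and noncoding genes were passed over. The 20 neighbours of VSNL1 had a median log2 difference of -0.05, with 0 higher and 1 lower. The nearest were MYCN (0.15 ± 0.09, SE, n = 3) on the one side and SMC6 (-0.04 ± 0.07) on the other, and neither passed. Another kept probe set of MYCN stood at -0.34 and did not pass either. The gene that fell was KCNS3, a modulatory potassium channel subunit and the next but one beyond SMC6, at 147, 146 and 148 in LV-shNC and 112, 113 and 103 in LV-shIL-1β. Its log2 difference was -0.43 ± 0.06 (limma, Benjamini-Hochberg adjusted p = 0.00385). The 20 neighbours of HPCAL1, 7 of them shared with those of VSNL1, had a median of -0.07, with 1 higher and 1 lower. RRM2 (0.06 ± 0.04) and ODC1 (0.24 ± 0.06), the nearest, did not pass. ITGB1BP1, a protein that binds an integrin tail, was higher at 0.25 ± 0.05 (adjusted p = 0.0252), and the esterase-like IAH1 was lower at -0.28 ± 0.05 (adjusted p = 0.00789), each on 1 of 2 kept probe sets. Among neighbours that did not pass, 1 of 2 kept probe sets of SDC1 and 1 of 4 of PDIA6 passed as lower. Both were named after their values were seen. With the mean over all kept probe sets, 3 of the 33 different neighbours were higher and 1 lower, against 1 and 2 by the brightest probe set. The call of ITGB1BP1 was lost without LV-shNC array 1, 2 or 3 or LV-shIL-1β array 2 or 3 (adjusted p up to 0.0978). With the replicate block in limma, ITGB1BP1 and IAH1 both lost their calls (adjusted p = 0.115 and 0.0713).

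To describe which genes followed the pattern of VSNL1, the correlation with the mean log2 signal of its 2 probe sets was taken over the 6 arrays, among kept probe sets with 1 symbol and a log2 range of at least 0.5. The arrays form 2 groups, so these values rest largely on the difference between the groups and carry no p. The highest were IGFBP3, which binds insulin-like growth factors (Pearson r = 0.9997), the interferon receptor chain IFNAR2 (0.999), RWDD2B (0.997), KHNYN (0.995) and RIPOR3 (0.995). Their log2 differences lay between -0.80 for RIPOR3 and -0.45 for RWDD2B. The lowest were the chemokine CCL20 (-0.9998), HLA-DRA, a chain of an MHC class II molecule (-0.998), C12orf56 (-0.996), the amine oxidase MAOB (-0.995) and the adhesion molecule CNTN1 (-0.995), with log2 differences from 0.56 for C12orf56 to 0.78 for CCL20. The mean signal of MAOB was 13.4 in LV-shNC, below the median used by the filter, and 21.3 in LV-shIL-1β. It was thus kept through its LV-shIL-1β values, which favours such a pattern, and nothing is read from its place here.

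Markers of neurons and of the labelled cell type were compared last. Of 18 neuronal markers 7 passed the filter, and SNAP25, SYP, STMN2, NEFM, NEFH, INA, GAP43, MAP2, CHGA, DCX and ELAVL4 did not. The summed signal of the list was 2591 to 2606 in LV-shNC and 2381 to 2570 in LV-shIL-1β, most of it from TUBB3. With limma 0 of the 7 passed (1 at an unadjusted p under 0.05), TUBB3 standing at -0.06 ± 0.04 (SE, n = 3), NEFL at -0.05 ± 0.09, ENO2 at 0.06 ± 0.07 and UCHL1 at -0.08 ± 0.09, although a dimmer probe set of NEFL passed at -0.50. Of 10 listed squamous epithelial markers, KRT6A, KRT17 and TP63 had no probe set assigned to them alone. The 7 measured ones were all kept, with a summed signal of 22876 to 23812 in LV-shNC and 20414 to 20981 in LV-shIL-1β. Of these 7, 4 fell, namely KRT14 (-0.35 ± 0.03), KRT5 (-0.32 ± 0.04), KRT16 (-0.57 ± 0.07) and PKP1 (-0.40 ± 0.06), while DSP (-0.13 ± 0.08), SFN (0.01 ± 0.03) and CDH1 (0.04 ± 0.04) did not pass. The summed signal of fibroblast markers was 186 to 205 against 147 to 162, with COL1A1 at -0.16 ± 0.11 (2 of its 4 kept probe sets passed as lower), THY1 at -0.13 ± 0.09, and DCN, COL3A1 and PDGFRA below the filter. LUM and COL1A2 were kept only through their LV-shNC values, so that they had to differ, and their calls are not used. LUM gave 20.4, 29.5 and 32.6 in LV-shNC and 13.7, 13.0 and 10.3 in LV-shIL-1β, and COL1A2 gave 25.2, 22.6 and 21.9 against 17.1, 16.02 and 15.1. With 16 added before the logarithm their log2 differences went from -1.14 to -0.61 and from -0.53 to -0.29. The sums of leukocyte markers were 77.2 to 84.5 against 100.3 to 105, with CD14 higher (0.51 ± 0.08) and PTPRC, CD3E, CD2 and LYZ below the filter. Those of endothelial markers were 72.2 to 74.5 against 69.0 to 71.7, with PECAM1 alone above the filter (-0.03 ± 0.08). The sums of all 5 lists differed without overlap between the groups, as did 27.9% of all kept probe sets taken singly. The gaps were narrow for the neuronal and endothelial sums, and the leukocyte difference came mostly from CD14 (mean 49.5 against 70.4). The part of these differences in the values of the sensors was not tested.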

How the data were processed

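Values were those of 6 Affymetrix Human Genome U133 Plus 2.0 arrays, 3 LV-shNC and 3 LV-shIL-1β, grouped by the sample titles. Total RNA (6 µg an array, per the labels) was labelled with biotin. The authors deposited intensity values on a linear scale, from 1.38 to 10502, for 54675 probe sets. MAS5 is the tool that the submitters' processing notes give. Its settings and version are not given in the sources read, and normalization across arrays would narrow the spread between them.

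Signals were put on the log2 scale with no further normalization, and 62 control probe sets were left out. Probe sets were kept when at least 3 arrays exceeded the median of all values (18.6), leaving 27566. The comparison used lmFit and eBayes with a trend from limma 3.58.1 (R 4.3.3, two-sided), with Benjamini-Hochberg adjustment over all kept probe sets and a threshold of 0.05. The fit was tested on simulated data. The members and gene lists were chosen with earlier results of these data known. Named genes were the members, IL1B, all listed sensors, every listed gene that passed, the brightest up to 4 a list, the nearest neighbours and the 5 most alike in each direction. Genes came from the platform annotation, in which 41097 probe sets have 1 symbol, 1801 several and 11777 none, and 41043 identifiers matched RefSeq (GRCh38.p14). Alternatives were quantile normalization, median centring, log2(signal + 16), no filter, a stricter filter (mean above 2 times the median), leaving out each array, a replicate block, the methods' t-test and other ways to represent a gene. Student's t-test is named by the study for its data in general, while its rule for these arrays was a fold cutoff with a p threshold. The t-test here used adjusted p and no fold cutoff, so its counts are not those of that rule. No depth applies to arrays, and their number limits the precision.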

Additional observations from a re-analysis of the deposited data

How the results depend on the processing

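The mean log2 differences of VSNL1 and HPCAL1 kept their sign under quantile normalization, median centring, log2(signal + 16), the brightest probe set and each left-out array. The means of NCALD and NCS1 did so too. However, the 2 NCALD probe sets were opposite in sign and the interval of each NCS1 probe set included 0, so no direction is read for either. The replicate block is balanced over the groups and leaves these means unchanged by design, so it does not check their sign. The mean differences were not recomputed under the other filters, the methods' t-test or the mean over kept probe sets. With log2(signal + 16) VSNL1 was at -1.07 and NCALD at -0.054, and on its brighter probe set alone NCALD was at -0.37. Leaving out each array in turn gave -1.31 to -1.23 for VSNL1, 0.33 to 0.42 for HPCAL1, -0.15 to -0.09 for NCALD and -0.10 to -0.04 for NCS1. Of all kept probe sets 1943 passed, and between 696 (without LV-shIL-1β array 2) and 1808 (without LV-shIL-1β array 1) with an array left out, 568 with the replicate block and 267 with the methods' t-test after adjustment. The number of genes called, with an array left out, was 0 to 1 for binding partners, 0 to 2 for cyclic AMP genes, 1 to 4 for channels and pumps and 2 to 4 for neighbours. It was 0, 2, 2 and 1 for these with the replicate block and 0, 0, 1 and 1 with the methods' t-test. The stricter filter left 1 cyclic AMP gene, quantile normalization gave 2 SNAI-list genes, and the mean over kept probe sets gave 2 EF-hand and 7 channel or pump genes, and turned the balance of higher and lower calls to 2 and 0 for cyclic AMP genes and to 3 and 1 for neighbours. The other sensors stayed at 0 under each. The cause of these moves was not tested. The titles number the arrays 1 to 3 in both groups, but the deviations of arrays with the same number correlated at -0.39, -0.11 and -0.21, so the numbers were not taken as pairs. Low signal limits NCALD and the genes below the filter.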
